A study of Mus musculus with 6 samples.

Results

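The interferon receptor chains and the transcription factors that act below them were followed in mouse intestine. The 9 genes are Ifnar1, Ifnar2, Ifngr1, Ifngr2 and Ifnlr1 for the receptors and Stat2, Irf1, Irf7 and Irf9 for the factors, chosen by name from the 54446 gene identifiers of the count table, and all 9 were found and were among the 19176 genes tested. RNA of 3 control and 3 necrotizing enterocolitis (NEC) samples was sequenced. All mice were wild type ("WT") and were killed at 96 h. Control pups stayed with the dam and had neither hypoxia nor cold stress. NEC pups were gavaged every 4 h over the 96 h with 40 µl of Esbilac, a milk replacer, at 33%, and every 12 h they breathed 99.9% nitrogen for 100 s and were then held at 4 °C for 10 min. The NEC group therefore differs from control in diet, handling, hypoxia and cold together, and these cannot be told apart. Sex-linked transcripts also differed between the groups, as given below. The sources used here do not give age, strain, sex or the segment of intestine, and do not say that each sample is a separate animal. The p-values therefore measure only how these samples vary, and that variation may be technical.

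Interferons are cytokines that induce an antiviral state. Type I interferons bind the receptor of IFNAR1 and IFNAR2, interferon gamma binds IFNGR1 and IFNGR2, and the type III interferons (interferon lambda) bind IFNLR1 paired with the shared chain IL10RB, a receptor that acts mainly in epithelia and is prominent in the gut. Janus kinases on the receptors phosphorylate STAT proteins. Type I and type III signals assemble the complex ISGF3, which holds STAT2 and IRF9 and binds the interferon-stimulated response element (ISRE), while interferon gamma signals act through the gamma-activated site (GAS). IRF1 and IRF7 are themselves induced by interferon: IRF1 drives antigen presentation genes, and IRF7 amplifies the production of type I interferon.

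The start-site windows of the factor genes Irf1, Irf7 and Stat2 are shown because all 3 had lower scaled levels (CPM, below) in every NEC library than in any control and because these genes are textbook targets of the elements named above. Each window runs from 250 bases before to 50 bases after the RefSeq gene start (GRCm38.p6, the build also called mm10). Capitals mark matches, on either strand, to the ISRE core, read as GAAA, any 2 bases and GAAA again, or to the GAS letters TTCNNNGAA. No window held both patterns.
Irf1, chr11:53769764-53770063, plus strand: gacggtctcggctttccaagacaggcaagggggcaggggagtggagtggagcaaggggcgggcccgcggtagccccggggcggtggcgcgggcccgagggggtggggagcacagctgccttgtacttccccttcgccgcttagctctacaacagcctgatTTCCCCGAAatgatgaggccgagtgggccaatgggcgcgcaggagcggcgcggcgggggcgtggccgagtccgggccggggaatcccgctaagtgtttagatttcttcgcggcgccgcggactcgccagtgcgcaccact
Irf7, chr7:141266375-141266674, minus strand: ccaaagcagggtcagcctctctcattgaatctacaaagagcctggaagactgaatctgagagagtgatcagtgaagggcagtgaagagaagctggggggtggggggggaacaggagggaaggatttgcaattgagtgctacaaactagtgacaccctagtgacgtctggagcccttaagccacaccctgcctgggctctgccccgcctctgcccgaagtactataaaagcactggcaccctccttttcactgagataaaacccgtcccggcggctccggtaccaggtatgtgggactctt
Stat2, chr10:128270248-128270547, plus strand: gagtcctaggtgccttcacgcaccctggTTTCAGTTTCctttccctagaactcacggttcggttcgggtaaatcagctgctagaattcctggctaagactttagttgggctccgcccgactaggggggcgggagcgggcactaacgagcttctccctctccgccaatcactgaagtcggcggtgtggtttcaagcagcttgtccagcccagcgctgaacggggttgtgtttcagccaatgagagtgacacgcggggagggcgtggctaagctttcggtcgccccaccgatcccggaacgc
The Irf1 window held 1 GAS match and the Stat2 window 1 ISRE match, while the Irf7 window held neither. Among the 32851 windows of the same length in the RefSeq table, 8.3% held a GAS match and 3.44% an ISRE match. Of the other members, Ifnar1 and Ifnar2 each had 1 GAS match. The windows of Ifngr1, Ifngr2, Ifnlr1 and Irf9 and a second Irf1 window had no match of either kind. Irf9 was, like the factors shown, lower in every NEC library than in any control, but its windows are not printed. A match is only a run of letters and does not show that a factor binds there.

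Libraries held between 69441184 and 106304239 counts. The intestinal epithelial genes Epcam, Cdh1, Krt8 and Vil1 were abundant in all 6 (Epcam between 1833 and 2953 CPM). Control replicates 1 and 2 held the female transcript Xist at 179 and 344 CPM and the other 4 libraries at most 1.17 CPM, and control replicate 1 also held Y-linked counts (Ddx3y at 19.8 CPM) while control replicate 2 was near 0 for it (1.29 CPM). Control replicate 3 held Ddx3y at 30.9 CPM, and NEC replicates 1 to 3 at 25.6, 44.8 and 35.1 CPM. Sex is thus partly confounded with group. Whether a sample pools several animals is not stated. Control replicate 3 and NEC replicate 1 carry sample codes that begin with AG181028 and the other 4 with AG181017. What these codes mark is not stated. NEC replicate 2 was the lowest of the 6 libraries for 7 of the 9 members and had the largest TMM factor, 1.172.

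In NEC, the interferon-induced factors Irf1 and Irf7 fell by nearly the same factor, from 213 and 170 CPM on average in control to 54.7 and 43.4 CPM. CPM is a library's counts scaled to a common total, after TMM scaling between libraries. Both passed the edgeR quasi-likelihood test, with an adjusted p of 0.0396 each over all genes. The other 7 members did not pass, although Irf9, Stat2 and Ifngr2 had lower values in every NEC library than in any control. DESeq2 called 3 members, adding Irf9, beside 7.54% of all genes that it called in either direction. Calls by limma-voom were 2 members and 0.787% of all genes. The count of 2 of 9 members called lower stands beside 0.443% of all genes tested called lower, and the count of 0 called higher beside 0.261%. At an unadjusted p below 0.05, 4 members were lower and 0 higher, beside 7.99% and 7.61% of all genes. In 5 of 9 members the groups did not overlap and NEC was lower, beside 11.6% of all genes. The median log2 fold change of the 9 was -0.44, and that of all genes tested was 0.026. The members were chosen with earlier results of these data known, so these contrasts with all genes add no independent evidence. In bulk tissue, fewer cells expressing a gene and less RNA per cell cannot be told apart.

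**Figure D1:**
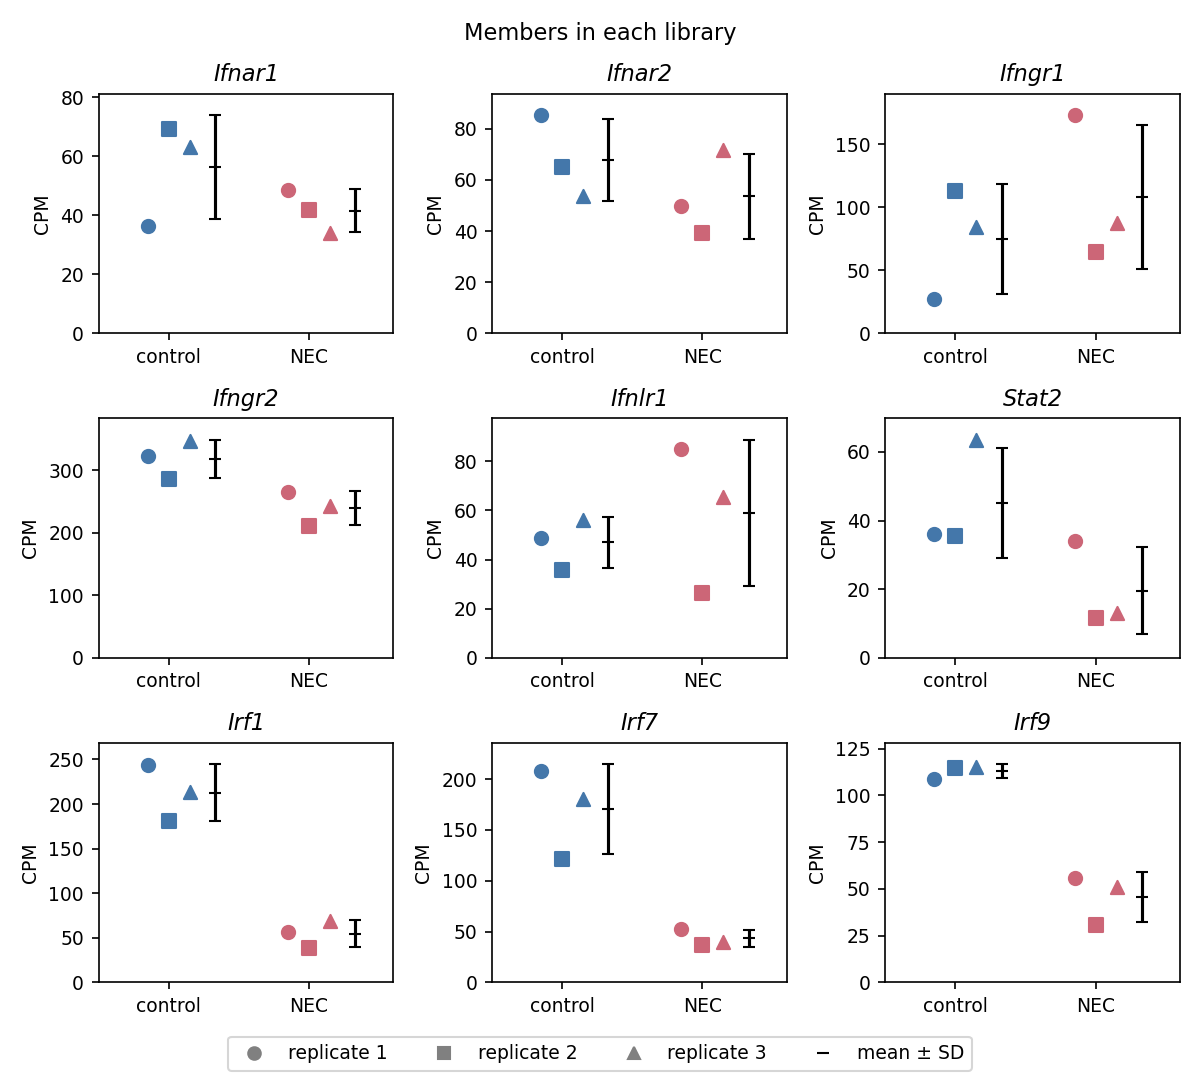
CPM of each member in the 3 control (blue) and 3 NEC (red) libraries, with the mean and SD of each group beside the points; every axis starts at 0. Irf1, Irf7 and Irf9 stand well apart between groups, while Ifnar1, Ifnar2, Ifngr1 and Ifnlr1 overlap.

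Among the receptor genes, no chain passed the test and most groups overlapped. Ifnar1, which encodes the signalling chain that carries TYK2 (chromosome 16, 91485238 to 91507441, plus strand), stood at 36.3, 69.4 and 63.3 CPM in control replicates 1 to 3 and at 48.7, 42.0 and 34.0 CPM in NEC replicates 1 to 3. Control replicate 1 lay among the NEC values, and the log2 fold change was -0.44 (SE 0.30, edgeR adjusted p = 0.54). Ifnar2, the chain that binds interferon with high affinity and carries JAK1 (chromosome 16, 91372783 to 91405589, plus strand), stood at 85.3, 64.9 and 53.7 CPM in control and 49.9, 39.1 and 71.7 CPM in NEC. Here control replicate 1 was the highest library, and NEC replicate 3 exceeded the other two controls. The log2 fold change was -0.34 (95% interval -1.04 to 0.35).

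The interferon gamma receptor gave the widest and the narrowest spread of the receptor genes. Ifngr1, the ligand-binding chain (chromosome 10, 19591949 to 19610229, plus strand), had 27.0, 112.9 and 84.4 CPM in control and 173.1, 64.6 and 87.4 CPM in NEC. The low library was control replicate 1 and the high one NEC replicate 1, and the groups overlapped. Its log2 fold change of 0.54 had a 95% interval from -0.75 to 1.82, and it was 0.13 without control replicate 1 and 0.021 without NEC replicate 1. Ifngr2, the accessory chain (chromosome 16, 91547072 to 91565623, plus strand), had 322.4, 285.8 and 346.1 CPM in control and 265.2, 210.4 and 242.6 CPM in NEC. Every NEC library lay below every control, by a gap of 1.08 times between the nearest libraries, and the log2 fold change of -0.41 (SE 0.22) did not pass (edgeR adjusted p = 0.426).

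Ifnlr1, the type III interferon chain of epithelia (chromosome 4, 135686287 to 135708181, plus strand), had 48.9, 35.9 and 56.1 CPM in control and 85.0, 26.4 and 65.3 CPM in NEC. NEC replicate 2 was the lowest of the 6 libraries and NEC replicate 1 the highest. The log2 fold change was 0.33 (95% interval -0.64 to 1.30), and without NEC replicate 1 it was -0.038. The partner chain Il10rb had 303.3, 222.0 and 87.4 CPM in control and 66.2, 131.1 and 130.4 CPM in NEC. Both AG181028 libraries held the least Il10rb, and its log2 fold change was -0.90 (SE 0.47, edgeR adjusted p = 0.414). Of the 6 receptor chains, 0 passed with edgeR, DESeq2 or limma-voom and 0 had an unadjusted p below 0.05.

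Ifnar2, Il10rb, Ifnar1 and Ifngr2 lie in that order on the same strand within 192.8 kb of chromosome 16. All 4 had negative values, with log2 fold changes of -0.34, -0.90, -0.44 and -0.41, and only Ifngr2 had groups that did not overlap. Ifnar2 shares 315 exon bases with the same-strand gene model Gm21970, which was listed at 0 in all 6 libraries.

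The partner factors of ISGF3 were lower in every NEC library without passing the test. Irf9, the DNA-binding subunit (chromosome 14, 55603571 to 55610030, plus strand), had 108.6, 114.4 and 115.4 CPM in control and 55.7, 30.7 and 51.0 CPM in NEC. The 3 controls lay close together, and the lowest of them was 1.95 times the highest NEC library. Irf9 was 2.46-fold lower (-1.30 on the log2 scale, SE 0.27, edgeR adjusted p = 0.0838), and DESeq2 called it (adjusted p = 0.00203). Irf9 shares 123 exon bases with its same-strand neighbour Rnf31, whose log2 fold change was -1.07 (SE 0.37).

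Stat2, the STAT that IRF9 binds (chromosome 10, 128270559 to 128292849, plus strand), had 36.0, 35.6 and 63.5 CPM in control and 34.1, 11.5 and 13.1 CPM in NEC. The AG181028 library was the highest in both groups, and the gap between NEC replicate 1 and control replicate 2 was only 1.04 times. The log2 fold change was -1.20 (95% interval -2.30 to -0.11), with an edgeR adjusted p of 0.278. With the sample code as a term it was -1.33 and passed (edgeR adjusted p = 0.0457). It was -1.88 without NEC replicate 1 and -0.87 without control replicate 3.

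Irf1 and Irf7 were the members that passed. Irf1 (chromosome 11, 53770014 to 53778374, plus strand) had 244.0, 181.2 and 213.4 CPM in control and 56.7, 38.3 and 69.1 CPM in NEC. The lowest control held 2.62 times as much as the highest NEC library. Irf1 fell 3.89-fold (log2 fold change -1.96, SE 0.29, 95% interval -2.62 to -1.30, edgeR adjusted p = 0.0396). Irf7 (chromosome 7, 141262706 to 141266481, minus strand) had 208.4, 121.7 and 180.2 CPM in control and 53.0, 37.2 and 40.0 CPM in NEC. Its lowest control held 2.3 times as much as its highest NEC library. Irf7 fell 3.92-fold (log2 fold change -1.97, SE 0.29, 95% interval -2.63 to -1.31, edgeR adjusted p = 0.0396). Irf1 overlaps Gm17334 by 135 exon bases and Irf7 overlaps Phrf1 by 45, both on the opposite strand. Gm17334 stood at no more than 1.38 CPM, and Phrf1 had a log2 fold change of -0.19.

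The size of both falls moved little when a library was left out, while the calls did not hold. Without 1 library the log2 fold change of Irf1 ran from -2.16 to -1.77 and that of Irf7 from -2.16 to -1.80. Irf1 was no longer called in any of these 6 fits, with edgeR adjusted p between 0.0535 and 0.222. Irf7 was called without control replicate 2 (edgeR adjusted p = 0.0343) and in none of the other 5, where the adjusted p ran from 0.0763 to 0.222. The largest p of each came without control replicate 1, a fit in which 0 of 19959 genes were called. Within the 4 AG181017 samples the values were -2.02 for Irf1 (edgeR adjusted p = 0.137) and -2.12 for Irf7 (0.112), and 25 genes were called in all. Between the AG181028 pair, 1 library of each group, the differences of log2 CPM were -1.91 and -1.77. Without both controls that hold Xist, Irf1 was at -1.97 (edgeR adjusted p = 0.218) and Irf7 at -2.05 (0.157).

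**Figure D2:**
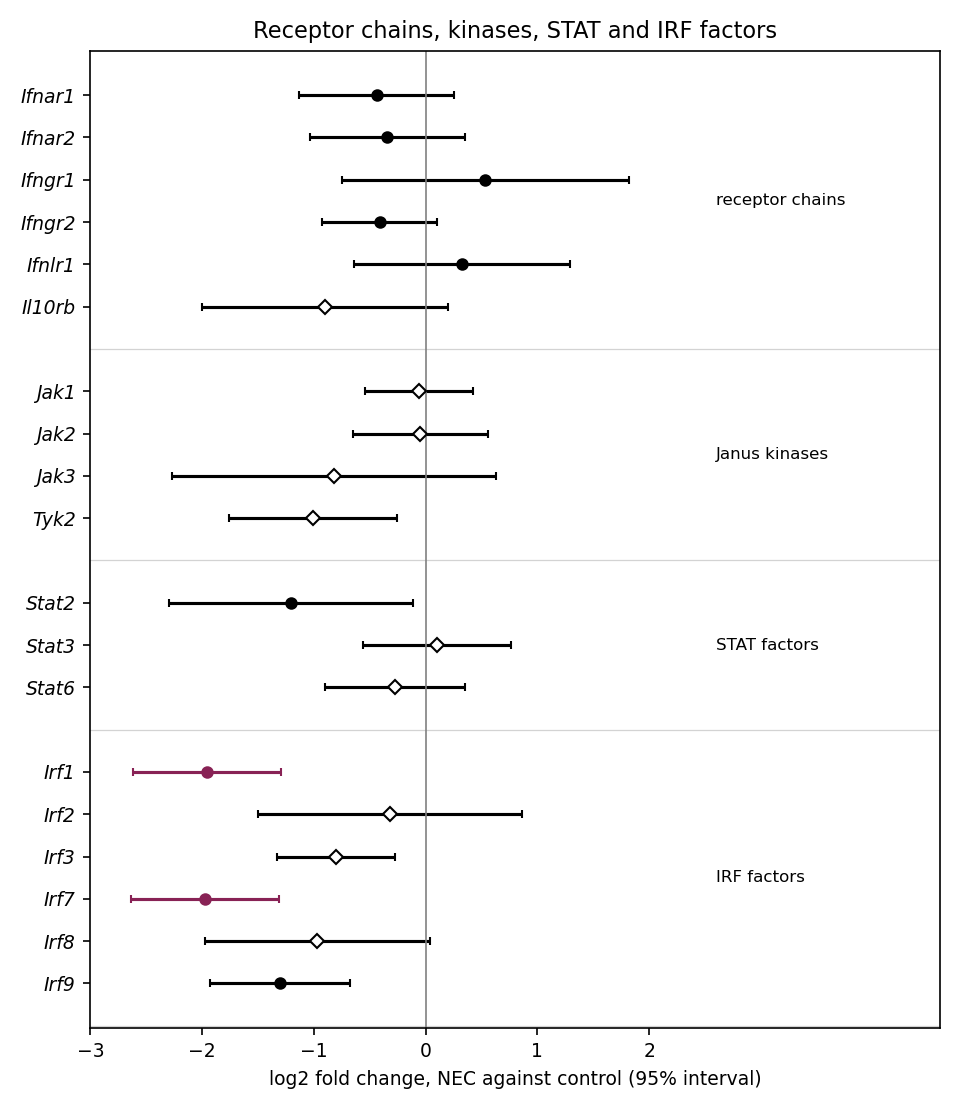
Log2 fold change of NEC against control with its 95% interval for the genes of 4 families that the text names; filled circles are the members, open diamonds the other genes, and purple marks an edgeR adjusted p below 0.05. Irf1 and Irf7 lie near -2, and all receptor intervals cross 0.

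Compared per transcript length, the order of the members differed between groups. Values here are FPKM, CPM divided by the length in kilobases of the longest CCDS transcript (a reviewed coding transcript) of each gene. In control, Irf1 was highest at 99.6 ± 14.7 FPKM (SD, n = 3), followed by Ifngr2 at 85.8 ± 8.2 and Irf7 at 76.0 ± 19.8, and these 3 overlapped. Irf9 (38.1), Ifngr1 (35.4), Ifnar2 (22.3), Ifnar1 (14.4), Ifnlr1 (11.2) and Stat2 (10.3) followed, each overlapping its neighbour in the order, while Irf7 and Irf9 did not overlap. In NEC the order began with Ifngr2 at 64.6 ± 7.43 FPKM and Ifngr1 at 51.3 ± 27.1, ahead of Irf1 at 25.6 ± 7.23 and Irf7 at 19.4 ± 3.76, each overlapping the next. Irf1 ranked first in all 3 control libraries and the third in all 3 NEC libraries. Stat2 was the lowest member in all 3 NEC libraries, at 4.45 ± 2.87 FPKM, and did not overlap with Ifnar1 above it. The order rests on the length used: with all exons of a gene merged, Ifngr2 led in control too, at 84.4 FPKM against 53.5 for Irf1 and 45.0 for Irf7.

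**Figure D3:**
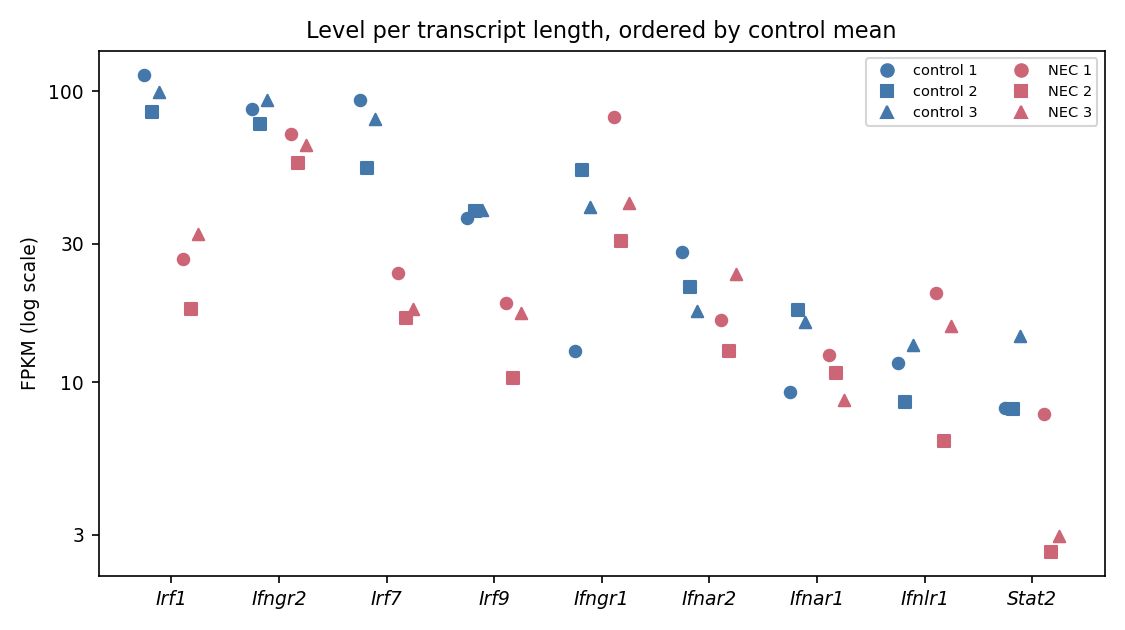
FPKM of the 9 members in each library on a log axis, control in blue and NEC in red, ordered by the control mean. Irf1 leads in every control library, and Ifngr1 and Ifngr2 lead in the NEC libraries.

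Differences of log2 CPM within a library, which need no scaling between libraries, were taken for 4 pairs: both chains of a receptor, and an inducible factor with a relative that is present without induction. Each was tested over libraries by a two-sided exact permutation test, whose smallest p with 3 against 3 is 0.1. Irf7 exceeded Irf3, the constitutive activator of the first wave of interferon, by 2.31, 1.95 and 2.36 in control and by 1.40, 0.70 and 1.05 in NEC. The mean difference dropped by 1.15 (exact permutation p = 0.1, adjusted over the 4 pairs 0.2), and the groups did not overlap. Irf3 itself had a log2 fold change of -0.80 (SE 0.23, edgeR adjusted p = 0.152). Irf1 exceeded Irf2, its relative and antagonist, by 2.73, 3.39 and 2.38 in control and by 0.40, 1.67 and 1.71 in NEC. This was 1.57 less in NEC, again without overlap (difference -1.57, exact permutation p = 0.1, adjusted 0.2).

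The receptor pairs overlapped between groups. Ifngr2 exceeded Ifngr1 by 3.58, 1.34 and 2.04 in control and by 0.62, 1.70 and 1.47 in NEC, with a difference of -1.05 (exact permutation p = 0.3) that was -0.42 without control replicate 1. Ifnar2 against Ifnar1 gave 1.23, -0.097 and -0.24 in control and 0.037, -0.10 and 1.08 in NEC. Control replicate 1 and NEC replicate 3 stood apart from the other 4 libraries in this measure, and the group means differed by 0.037 (exact permutation p = 1).

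**Figure D4:**
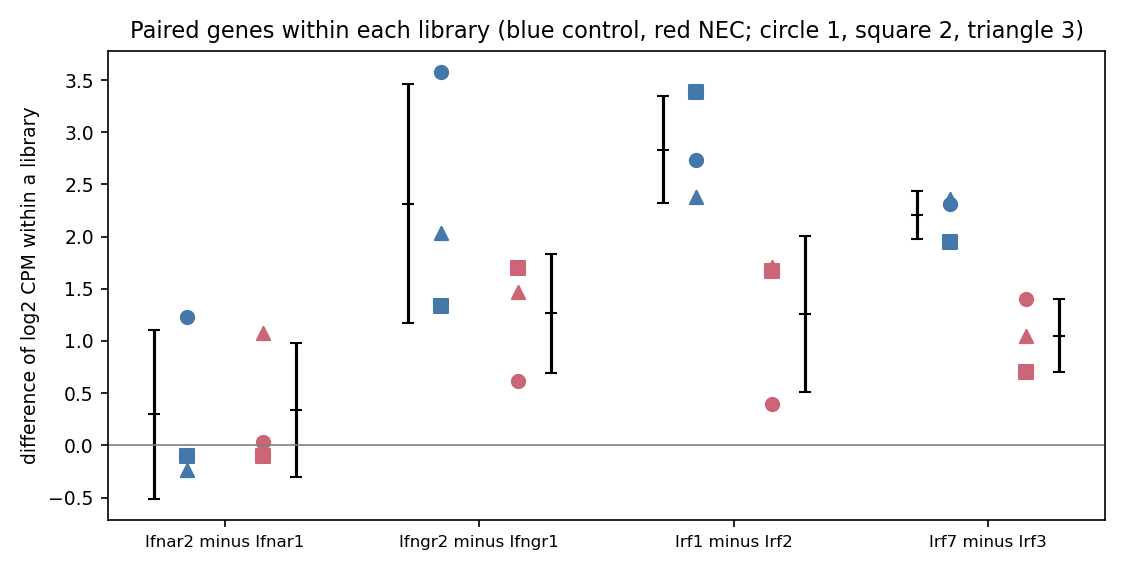
Difference of log2 CPM between 2 genes of the same library for 4 gene pairs, with mean and SD beside the points. Irf7 minus Irf3 and Irf1 minus Irf2 are lower in all 3 NEC libraries, and both receptor pairs overlap.

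The rest of the pathway was read from lists of genes by role. Of 4 Janus kinases, none passed (0 with DESeq2 and 0 with limma-voom), and Tyk2, the kinase of IFNAR1, had an unadjusted p below 0.05. Tyk2 stood at 35.4, 29.2 and 49.3 CPM in control and 25.0, 18.4 and 13.1 CPM in NEC (log2 fold change -1.01 with an edgeR adjusted p of 0.202), while Jak1 and Jak2 had values of -0.057 and -0.047. Jak3, which serves cytokine receptors of lymphocytes, had -0.82. Of 7 STAT genes, 0 passed with edgeR and 1 with DESeq2 and with limma-voom, and 2 had an unadjusted p below 0.05. Both were lower in NEC, beside 7.99% of all genes lower at such a p. Values were 0.10 for Stat3, the factor of interleukin 6 signalling, and -0.28 for Stat6, the factor of interleukin 4 signalling. The STAT list had a median of -0.28.

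Of 9 IRF genes, 8 were tested, 2 fell and none rose, beside 0.443% and 0.261% of all genes, and the median was -0.89. The 2 were Irf1 and Irf7, already counted among the members. At an unadjusted p below 0.05, 4 IRF genes were lower and 0 higher, beside 7.99% and 7.61% of all genes. In 6 of the 8 tested the groups did not overlap and NEC was lower, beside 11.6% of all genes. Irf8, a factor of dendritic cells and macrophages, had 96.1, 53.8 and 52.0 CPM in control and 16.3, 47.0 and 40.0 CPM in NEC (log2 fold change -0.97 with an edgeR adjusted p of 0.338). Irf2, the antagonist of IRF1, had -0.32. Among 12 brakes on interferon signalling 0 passed with edgeR, 2 with DESeq2 and 0 with limma-voom, and 2 had an unadjusted p below 0.05. Both were lower in NEC, beside 7.99% of all genes lower at such a p and 15.6% in either direction. The 2 genes were Usp18, which removes ISG15 and blocks IFNAR2, at 29.1, 27.4 and 29.4 CPM in control and 7.56, 1.48 and 8.51 CPM in NEC (-2.29, SE 0.59, edgeR adjusted p = 0.124), and the kinase inhibitor Socs1 (-1.41, SE 0.46). Pias3 had 0.97 and Ptpn1 0.61, and the list had a median of -0.038.

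**Figure D5:**
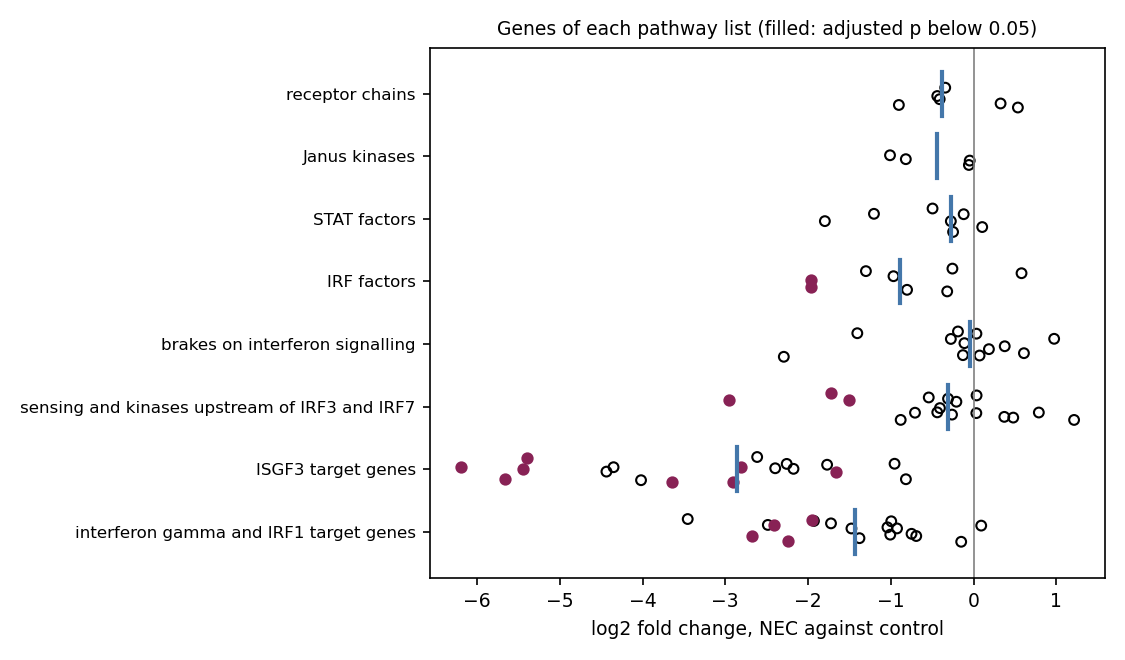
Log2 fold change of every tested gene in 8 lists by role in the pathway; each point is a gene, filled where edgeR's adjusted p was below 0.05, the blue bar is the list's median, and points are spread vertically for sight only. The lists of target genes lie furthest to the left, with medians of -2.86 and -1.43.

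Upstream, 3 of 17 tested sensors and kinases fell with edgeR and 0 rose: the RNA sensors Ddx58 (log2 fold change -1.50, SE 0.22) and Ifih1 (-1.72, SE 0.28) and their regulator Dhx58 (-2.96, SE 0.27). Over all genes tested, 0.443% were called lower and 0.261% higher. The adapter and kinase genes that link sensing to IRF3 and IRF7 did not pass, with -0.71 for Mavs, -0.21 for Tbk1, -0.26 for Ikbke and 0.79 for Traf6 (SE 0.22, edgeR adjusted p = 0.141). At an unadjusted p below 0.05, 5 genes of the list were lower and 2 higher, Traf6 and the RNA receptor Tlr7 (1.21), both without overlap between groups. Over all genes, 7.99% were lower and 7.61% higher at such a p, and 10.8% were higher without overlap. The count of 2 higher is near these upward shares. Of the list, DESeq2 called 3 lower and 1 higher, beside 7.54% of all genes in either direction. Calls by limma-voom were 3 lower and 0 higher, beside 0.787%. Downstream, 8 of 18 ISGF3 target genes fell, all 18 had negative values beside 48.1% of all genes, and the median was -2.86. The list includes genes already known from these data to be low in NEC, so it adds no independent evidence. The sensor list above and the interferon gamma and IRF1 list below were also chosen with earlier results known and add none either. The ISGF3 targets called were Isg15, Ifit1, Ifit3, Ifi44, Oas1a, Oasl2, Xaf1 and Zbp1, of which Isg15 was 43.6-fold lower and Oas1a 3.17-fold lower. The 18 genes of the list summed to 1410 to 1640 CPM in control and to 134 to 266 CPM in NEC. Ifit2, which was not called, held 347 CPM of the sum in control replicate 3 and at most 8.83 CPM in any other library. Of 18 genes known as targets of interferon gamma or IRF1, 4 fell and none rose, with a median of -1.43: the immunoproteasome subunits Psmb8 (-2.41, SE 0.38) and Psmb9 (-2.68, SE 0.30) and the guanylate-binding proteins Gbp6 (-2.24, SE 0.35) and Gbp7 (-1.96, SE 0.30). Of the 18, 17 had negative values, 10 were lower at an unadjusted p below 0.05 and 11 were lower without overlap between groups, among them Igtp (-2.49), Gbp3 (-1.72) and Psmb10 (-1.38), which were not called. The shares over all genes were 48.1%, 7.99% and 11.6%. In this list the smallest values in size were -0.15 for Gbp2 and 0.092 for Iigp1. With 1 library left out, called genes numbered from 0 to 9 among the ISGF3 targets, from 0 to 2 among the interferon gamma and IRF1 targets, and from 0 to 2 among the sensors and kinases. All 3 counts were 0 without control replicate 1 or without NEC replicate 3. Without control replicate 3 they were 4, 0 and 1, without NEC replicate 2 they were 3, 1 and 1, without control replicate 2 they were 9, 2 and 1, and without NEC replicate 1 they were 8, 0 and 2.

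The interferon genes themselves were hardly counted. Of 21 ligand genes 16, including Ifnb1, Ifnl2 and Ifnl3, were at 0 in all 6 libraries, which allows up to 3 counts in each if counts are independent. Counts here fell on multiples of 4 more often than on other values, so they may not be, and the limit may be higher. Ifng had 4 counts in control replicate 3 and 4 in NEC replicate 1 and none in the other 4 libraries. Among these genes Ifnk, an interferon of keratinocytes, was the most counted, with 10, 6 and 8 counts in control and 12, 16 and 33 in NEC. None of the 21 passed the filter on low counts in the main fit, so no ligand transcript was tested there. With no filter, 5 were tested and 0 were called.

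Markers of other cells were read beside the falls of Irf1 and Irf7, and their part in these falls was not tested. Plasmacytoid dendritic cells hold much IRF7. Their marker Siglech stood at 0.49, 0.75 and 0.65 CPM in control and 0.27, 0.12 and 0.11 CPM in NEC, while Ly6d, also an epithelial gene, was higher in all 3 NEC libraries, and the 6 markers summed to between 6.16 and 8.07 CPM in control and between 6.53 and 18.7 CPM in NEC. With edgeR 0 of the 5 tested markers passed, 1 had an unadjusted p below 0.05 in each direction, and DESeq2 called 1 (higher) and limma-voom 0. Of 7 T cell markers 6 were tested and 0 passed with edgeR, with 1 at an unadjusted p below 0.05, 1 called by DESeq2 and 0 by limma-voom. Trac, the T cell receptor alpha constant gene, had 13.6, 2.03 and 17.3 CPM in control and 0.56, 0.49 and 0.70 CPM in NEC (log2 fold change -4.24 with an edgeR adjusted p of 0.0607), while Cd3d, Cd3g, Cd4 and Cd8a overlapped and Cd3e was at most 0.20 CPM. Lck, a kinase of the T cell receptor, lay the other way without overlap, at 0.68, 1.21 and 1.01 CPM in control and 1.58, 1.25 and 2.05 CPM in NEC (edgeR adjusted p = 0.46). T cell markers summed to between 5.03 and 22.2 CPM in control and between 3.91 and 6.52 CPM in NEC. Without Trac the sums overlapped, at 3.003 to 4.886 CPM in control and 3.20 to 5.97 CPM in NEC. Natural killer markers summed to at most 4.89 CPM in any library, with Klre1 at 0 throughout, and B cell markers to at most 6.84 CPM.

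Of 8 macrophage markers Cd163, the haemoglobin scavenger receptor, rose with edgeR (3.71, SE 0.54) and 0 fell, beside 0.261% and 0.443% of all genes. DESeq2 called 2 macrophage markers higher and 1 lower, beside 7.54% of all genes in either direction, and limma-voom called 0. Positive values were found in 6 of the 8 and the list's median was 0.67, with -1.10 for Csf1r (edgeR adjusted p = 0.0919) and 1.31 for Cd68. The complement genes C1qa, C1qb and C1qc had 0.61, 0.89 and 0.73. The sum of the 8 ran from 314 to 399 CPM in control and from 214 to 299.5 CPM in NEC. Csf1r made up most of it in the controls and in NEC replicate 1. In NEC replicates 2 and 3 Csf1r held 149.3 and 105.3 CPM, and the rest of the list 150.2 and 140.3 CPM. Without Csf1r the sum ran from 63.0 to 79.6 CPM in control and from 79.0 to 150.2 CPM in NEC. Neutrophil markers summed to between 10.0 and 23.8 CPM in control and between 14.1 and 37.3 CPM in NEC, with S100a8 and S100a9 higher in all 3 NEC libraries. Both were highest in NEC replicate 2, at 11.7 and 12.1 CPM. Of the 6 neutrophil markers tested, 2 had negative values, Csf3r (-0.90) and Mmp9 (-0.86). Erythroid markers ran from 213 to 337 CPM in control and from 475 to 2750 CPM in NEC. Neither list had a gene called by edgeR, while 4 of 6 tested neutrophil and 5 of 6 tested erythroid markers had an unadjusted p below 0.05 in the upward direction. Of all genes, 7.61% had such a p in that direction. DESeq2 called 3 neutrophil and 5 erythroid markers, beside 7.54% of all genes in either direction, and limma-voom called none. Markers of epithelium, where IFNLR1 mainly acts, summed to between 6250 and 6960 CPM in control and between 5750 and 7430 CPM in NEC, and none of the 8 was called by edgeR or limma-voom, against 1 by DESeq2 and 1 at an unadjusted p below 0.05. In the 5 tested endothelial and 6 stromal and muscle markers no tool made a call, with medians of 0.14 and -0.066, and 0 and 1 had an unadjusted p below 0.05.

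For the members that passed, the genes most alike over the 6 libraries were sought among 10072 others with a mean of at least 5 CPM, by Pearson correlation of log2 CPM. Since both groups are pooled, a high value follows from any like difference between them. Nearest to Irf7 were the kinase gene Nuak2 (r = 0.9975), the peptide-loading editor Tapbpl (0.9952) and the nucleic acid sensor Zbp1 (0.9942), whose log2 fold changes were -2.16, -1.67 and -5.39. Nearest to Irf1 were the histone gene H2afv (0.9939), B2m, the light chain of MHC class I (0.9937), and the proton pump gene Tcirg1 (0.9922), at -0.45, -1.68 and -0.56. Of these 6 genes, Nuak2, Tapbpl, Zbp1 and B2m passed the edgeR test, and H2afv and Tcirg1 did not.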

How the data were processed

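Total RNA of 6 mouse intestine samples, 3 control and 3 NEC, was sequenced with paired-end NovaSeq runs, per the labels' protocols. The authors deposited whole-number counts per gene, in 1 table. The genome build was mm10, per the submitters' processing notes, and the sources used here name no aligner, counter, annotation or strand setting. Reads of a gene and of a gene overlapping it cannot be separated. Of 54446 identifiers 54409 matched a symbol. Counts between 8 and 40 that are multiples of 4 were 1.97 times as frequent as the others. The cause was not tested, and depth in independent fragments may be less than the counts. No 2 libraries differed by as little as sampling noise (chi-square per degree of freedom at least 314).

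The test was edgeR 4.0.16, run in R 4.3.3: filterByExpr with a minimum count of 10 (19176 genes kept), TMM, robust dispersions, quasi-likelihood F test, Benjamini-Hochberg over all genes kept, called at an adjusted p below 0.05. Fold changes are NEC over control, and SE is that of the log2 fold change. Log2 CPM used a prior count of 2. Positions and transcript lengths are from GENCODE M21 (mm10), start-site windows from RefSeq (GRCm38.p6), where all 9 members matched. The fit was tested on simulated data with 50 changed genes at each log2 fold change from 1 to 4. It recovered 1 of 50 at 1, 16 at 2, 35 at 3 and 38 at 4, and 9 of its 99 calls were false. A gene that did not pass may therefore still have changed. Alternatives tried were other scalings (RLE, upper quartile, library size), no filter, a filter of 50 counts in 3 samples, DESeq2 1.42.0, limma-voom (limma 3.58.1), robust=FALSE, the replicate block, the sample code as a term, the AG181017 samples alone and each library left out. The fit without both controls that hold Xist and the merged exon length were added after seeing the data.

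The members and lists were chosen with earlier results of these data known. Genes named beside the 9 members were up to 4 per list with the smallest p, any gene called, and the 3 genes most alike in pattern. Jak3, Stat3, Stat6, Irf2, Pias3, Ptpn1, Mavs, Tbk1, Ikbke, Traf6, Tlr7, Gbp2, Gbp3, Iigp1, Igtp, Psmb10, Ifit2, the ligand genes and several markers were named for their roles, outside that rule and after their values were seen. Some genes that the rule would name are not reported here.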

Additional observations from a re-analysis of the deposited data

How the results depend on the processing

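Of the 9 members, 8 kept their sign in all 18 alternatives and Ifnlr1 in 17. Over all genes 135 were called, against 247 with no filter, 1446 with DESeq2, 243 with the sample code as a term, 25 in the 4 AG181017 samples alone and 1 without both controls that hold Xist. With library-size scaling 1 sensing gene and 2 interferon gamma and IRF1 targets were called. With no filter, 1 STAT gene and 13 ISGF3 targets were called, and 1 STAT gene was called with at least 50 counts in 3 samples, with limma-voom and with robust=FALSE. DESeq2 called Irf9 at -1.291, 1 STAT gene, 4 IRF genes, 2 brakes, 15 ISGF3 targets and 7 interferon gamma and IRF1 targets. With the sample code as a term, Stat2 was called at -1.329 and 2 STAT genes in all.

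Within the AG181017 samples, Irf1 at -2.015 and Irf7 at -2.12 lost the call, 0 IRF genes, 0 sensing genes and 0 interferon gamma and IRF1 targets were called, and the Ifnar2 minus Ifnar1 difference was -0.081. Without both controls that hold Xist, Irf1 at -1.965 and Irf7 at -2.053 lost the call, and 0 genes of the IRF, sensing, ISGF3 target and interferon gamma and IRF1 target lists were called. These losses also come with fewer samples.

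Same-numbered libraries did not deviate together (correlations -0.141, 0.269 and -0.007), so the numbers were not taken as pairs. The largest correlation between a control and an NEC library was 0.358, for control replicate 3 with NEC replicate 1, which share the code AG181028. The main fit had no term for the sample code. The replicate block left 54 genes called, with Irf1 at -1.992 (edgeR adjusted p = 0.0527), Irf7 at -1.952 (0.0473), 1 IRF gene and 1 sensing gene. With this block the within-library differences were 0.037 for Ifnar2 minus Ifnar1 and -1.053 for Ifngr2 minus Ifngr1, with 0.25 the smallest p such a sign-flip test can give.

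Leaving out 1 library at a time gave 0 to 106 genes called. Irf1 ranged from -2.16 to -1.769, Irf7 from -2.164 to -1.8, Ifnlr1 from -0.038 to 0.676, and Ifnar2 minus Ifnar1 from -0.332 to 0.504. Called genes numbered 0 to 1 among IRF factors, 0 to 1 among brakes, 0 to 2 among sensing genes, 0 to 9 among ISGF3 targets and 0 to 2 among interferon gamma and IRF1 targets. Depth limits the ligand genes, which held at most 33 counts in a library.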
